A study of Homo sapiens with 26 samples.

Results

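The respiratory chain was followed here through 112 protein-coding genes of 58592 genes in all. They were chosen by symbol: those beginning NDUFA, NDUFB, NDUFC, NDUFS or NDUFV (complex I and its assembly factors), UQCR (complex III), COX4 to COX8 (complex IV), ATP5 (complex V, the ATP synthase) or MT- (the mitochondrial genome), together with SDHA to SDHD (complex II) and CYC1 (cytochrome c1). Of these, 99 lie in the nuclear genome and 13 in the mitochondrial genome. The nuclear members comprise 38 genes of complex I, 8 of its assembly, 4 of complex II, 10 of complex III, 19 of complex IV and 20 of complex V, and the mitochondrial ones 7, 1, 3 and 2 of complexes I, III, IV and V. NDUFA4 and NDUFA4L2, named for complex I, were placed with complex IV, where the NDUFA4 protein is found.

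The respiratory chain passes electrons from NADH and succinate through complexes I to IV to oxygen and pumps protons across the inner mitochondrial membrane, and complex V uses the returning protons to make ATP. Complex II is built from nuclear genes alone, while the other complexes join nuclear subunits, imported after synthesis in the cytosol, to subunits made inside the mitochondrion. The mitochondrial mRNAs are cut from long polycistronic transcripts made by a separate RNA polymerase. Most of them receive poly(A) tails of their own and so are captured in poly(A)-selected libraries. The nuclear genes answer to factors such as NRF1, GABP (an ETS factor) and YY1. Germinal centre B cells, from which these lymphomas derive, divide rapidly and have a high demand for ATP.

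RNA came from the established human lines OCI-Ly7 and SUDHL4 (SU-DHL-4), both derived from diffuse large B cell lymphoma of the germinal centre type. All cells carried dCas9-BFP-KRAB, a catalytically dead Cas9 fused to a repressor domain and driven by the SFFV promoter of the lentiviral construct. Guides were added by a second transduction and were non-targeting (control) or directed at POU2F2, which encodes the octamer-binding factor OCT2, or POU2AF1, which encodes its coactivator OCA-B. The media were IMDM for OCI-Ly7 and RPMI for SUDHL4, both with serum, so that line and medium cannot be told apart. Merging of repeated files left 18 OCI-Ly7 libraries, of which 4 were controls, 6 had guides against POU2AF1 and 8 against POU2F2, and 4 SUDHL4 libraries, divided 1, 1 and 2. The labels do not say whether the libraries came from separate cultures, so the p-values reflect the spread among the samples at hand, which may be technical.

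Libraries held 26325504 to 59431666 estimated reads. The labels give 2 batches, marks s0 to s3 on 12 of the OCI-Ly7 batch 2 libraries, and 48 h on OCI-Ly7 POU2AF1 knockdown replicate 3, POU2F2 knockdown replicate 3 and the batch 1 control file that nearly matches the sum of the other 2 (control replicate 1). All SUDHL4 libraries and 5 OCI-Ly7 libraries (1 control and 4 POU2AF1 knockdowns) are of batch 1. OCI-Ly7 POU2AF1 knockdown replicate 1 stands apart in its mitochondrial reads, and the OCI-Ly7 comparisons of the ratio and of the mitochondrial mRNAs are also given without it. POU2F2 knockdown replicate 3 is labelled batch 2 but lies with batch 1 in several members described below. POU2AF1 was at 445 to 470.5 CPM (TMM-normalised counts scaled to library size) in OCI-Ly7 controls and 27.3 to 87.9 in its knockdown, and POU2F2 at 207 to 407 and 55.7 to 148. In SUDHL4, POU2AF1 went from 442 to 79.8 CPM and POU2F2 from 330.2 to 43.5 and 55.3. All 11 B cell markers used (such as MS4A1, CD79A and PAX5) were above 1 CPM in every library. The summed markers of T and NK cells (15 genes, at most 4 of them above 1 CPM) were at 120.3 to 244 CPM in OCI-Ly7. Those of myeloid cells (11 genes, MARCO at 0 throughout) reached at most 6.94 CPM and the markers of erythroid, fibroblast and epithelial cells (13 genes) at most 1.02 CPM in OCI-Ly7 and 99.8 CPM in SUDHL4, there with a single gene above 1 CPM.

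The 13 mitochondrial mRNAs overlap at 3 places, which bears on how their reads are divided. The last 46 bases of MT-ATP8 (chrM:8366-8572 on GRCh38, plus strand) are also the first 46 of MT-ATP6 (chrM:8527-9207), and both proteins are read from 1 mRNA. MT-ND4L (chrM:10470-10766) and MT-ND4 (chrM:10760-12137) share 7 bases, and MT-ATP6 and MT-CO3 share 1. The larger 2 overlaps are printed from the reference with 40 bases on each side, the shared bases in capitals, because values of MT-ATP8, MT-ATP6, MT-ND4L and MT-ND4 given below depend on how reads across them were divided.
MT-ATP8 and MT-ATP6, chrM:8487-8612: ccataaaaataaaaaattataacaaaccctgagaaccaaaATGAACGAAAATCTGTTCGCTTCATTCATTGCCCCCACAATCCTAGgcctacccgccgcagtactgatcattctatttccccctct
MT-ND4L and MT-ND4, chrM:10720-10806: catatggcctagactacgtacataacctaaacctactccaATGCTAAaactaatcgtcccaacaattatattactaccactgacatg
MT-ND6 (chrM:14149-14673) is the single member on the minus (light) strand, and the other 12 lie on the plus strand as annotated. How well poly(A) selection captures MT-ND6 was not tested, which limits its values and ratios below. Nuclear copies on chromosome 1 took reads as well. MTATP6P1 (chr1:633696-634376) held reads equal to 9.65% to 12.5% of those of MT-ATP6 across libraries, MTND2P28 2.59% to 4.17% of MT-ND2, and MTCO1P12 0.175% to 0.236% of MT-CO1. The near-identical copies make the split between gene and copy uncertain, and the copies together held reads equal to 1.05% to 1.42% of the mitochondrial mRNA reads.

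Promoters of 78 of the 99 nuclear members (250 bases before to 50 after the start, RefSeq, GRCh38.p14) were searched on both strands for 4 short words. GCGCATGC, the core of the NRF1 site, was present in 15 of the 78 (19.2%) and in 3.27% of all 27305 promoters of that length, or 4.25% of the 15313 of protein-coding genes. CCGGAAGT, an ETS word of the kind that GABP binds, was present in 10 (12.8%, against 4.44% of all and 6.31% of protein-coding ones), and AAGATGGC, a YY1 word, in 11 (14.1%, against 3.03% and 3.97%). ATGCAAAT, the octamer bound by OCT factors, was in none of the 78 and in 1.80% of all promoters and 1.67% of protein-coding ones. A match is a description of the letters in the window, and the absence of one says nothing of binding by the factor. The promoters of 3 members that were lower in SUDHL4 after POU2AF1 knockdown are printed with the matches in capitals, to show where these words lie beside the start at base 251. Where a palindromic GCGCATGCGC stands, the NRF1 word matches on both strands and the matches overlap.
SDHD, chr11:112086623-112086922, plus strand: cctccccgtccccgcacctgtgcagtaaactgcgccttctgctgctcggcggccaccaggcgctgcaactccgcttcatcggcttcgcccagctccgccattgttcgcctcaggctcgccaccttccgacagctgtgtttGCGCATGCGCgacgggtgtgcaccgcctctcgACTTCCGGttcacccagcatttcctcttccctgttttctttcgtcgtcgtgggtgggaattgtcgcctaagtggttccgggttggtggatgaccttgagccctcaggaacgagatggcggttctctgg
UQCRC1, chr3:48609597-48609896, minus strand: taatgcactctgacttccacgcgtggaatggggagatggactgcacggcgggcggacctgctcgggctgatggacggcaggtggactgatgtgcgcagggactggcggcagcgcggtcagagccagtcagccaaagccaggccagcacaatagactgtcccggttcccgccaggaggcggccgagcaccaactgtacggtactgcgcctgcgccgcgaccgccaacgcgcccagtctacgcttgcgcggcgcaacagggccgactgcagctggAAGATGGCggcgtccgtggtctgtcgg
ATP5F1C, chr10:7787927-7788226, plus strand: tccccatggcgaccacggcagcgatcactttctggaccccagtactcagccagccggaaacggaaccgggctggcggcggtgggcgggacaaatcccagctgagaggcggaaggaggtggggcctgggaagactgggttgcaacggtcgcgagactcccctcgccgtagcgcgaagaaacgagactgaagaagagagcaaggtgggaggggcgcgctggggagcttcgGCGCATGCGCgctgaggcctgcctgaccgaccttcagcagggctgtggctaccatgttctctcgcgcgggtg
SDHD, the membrane anchor of complex II, holds the NRF1 word at bases -110 and -108 and the ETS word at -78 (first base of the match, the base before the start counted as -1). UQCRC1, a core subunit of complex III, holds the YY1 word at 24, and ATP5F1C, the central stalk of the ATP synthase, the NRF1 word at -22 and -20. Of the 18 matched members that were called lower in that comparison, the NRF1 word was in 6, the ETS word in 2 and the YY1 word in 3. Of the 7 matched members called higher, they were in 1, 1 and 0, and of the 49 tested and not called, in 8, 7 and 8.

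Mitochondrial mRNAs were far more abundant than nuclear ones. Per length, as deposited TPM summed per gene, the median over the 22 libraries ran from 454 for MT-ND6 to 23237 for MT-CO2, with MT-ATP8 at 21135, MT-CO3 at 20157, MT-ATP6 at 16648, MT-CO1 at 15808, MT-ND4 at 12957, MT-ND4L at 11213, MT-ND2 at 8969, MT-CYB at 7901, MT-ND1 at 7737, MT-ND3 at 5468 and MT-ND5 at 3163. The 3 mitochondrially encoded subunits of complex IV and the 2 of complex V thus lay above all 7 of complex I in median TPM. The most abundant nuclear members by TPM were ATP5MF (935), the catalytic beta subunit ATP5F1B (720) and ATP5ME (650), all of complex V. Median TPM over all nuclear members was 123 in complex I, 49.3 among its assembly factors, 110 in complex II, 142 in complex III, 276 in complex IV and 301 in complex V.

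Isoforms differed widely in level. The common forms COX4I1, COX6A1, COX6B1, COX7A2 and COX8A of complex IV had median TPM of 563, 632, 493, 308 and 365. COX4I2, COX6A2 and COX7A1, known from lung or from heart and muscle, were at 0 in 20, 21 and 21 of the 22 libraries, with at most 2 reads in any library. COX8C and COX7B2 were at 0 in 12 and 20 libraries, and COX6B2 and ATP5MGL gathered 60 and 82 reads over all libraries. These 7 genes failed the filter on low counts within each line and were not tested there, so 92 nuclear members and all 13 mitochondrial ones were tested. NDUFA4 had a median TPM of 276 and its paralogue NDUFA4L2, known as a hypoxia-induced gene, 12.2. The 3 genes for the c subunit of the proton-driven ring, whose mature protein is the same, were of similar order, ATP5MC3 at 440, ATP5MC2 at 361 and ATP5MC1 at 267. UQCRHL, a near-identical copy of UQCRH, was at 0.382 against 604, and the readthrough genes NDUFC2-KCTD14 and ATP5MF-PTCD1 share exons with members, so their counts are uncertain.

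Library by library, the ratio of mitochondrial to nuclear member reads varied more among OCI-Ly7 libraries of 1 condition than between conditions. On the log2 scale, control replicates 1, 7, 8 and 9 were at 2.88, 2.97, 3.36 and 3.90. POU2AF1 knockdown replicates 1 to 6 were at 4.94, 2.93, 3.17, 3.11, 2.85 and 3.39. POU2F2 knockdown replicates 1 to 8 ran from 2.85 to 3.96 (median 3.23). The groups overlapped, and POU2AF1 knockdown replicate 1, with 30.7 mitochondrial reads for each nuclear member read, lay above the 7.21 to 15.5 of the other 21 libraries.

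**Figure D1:**
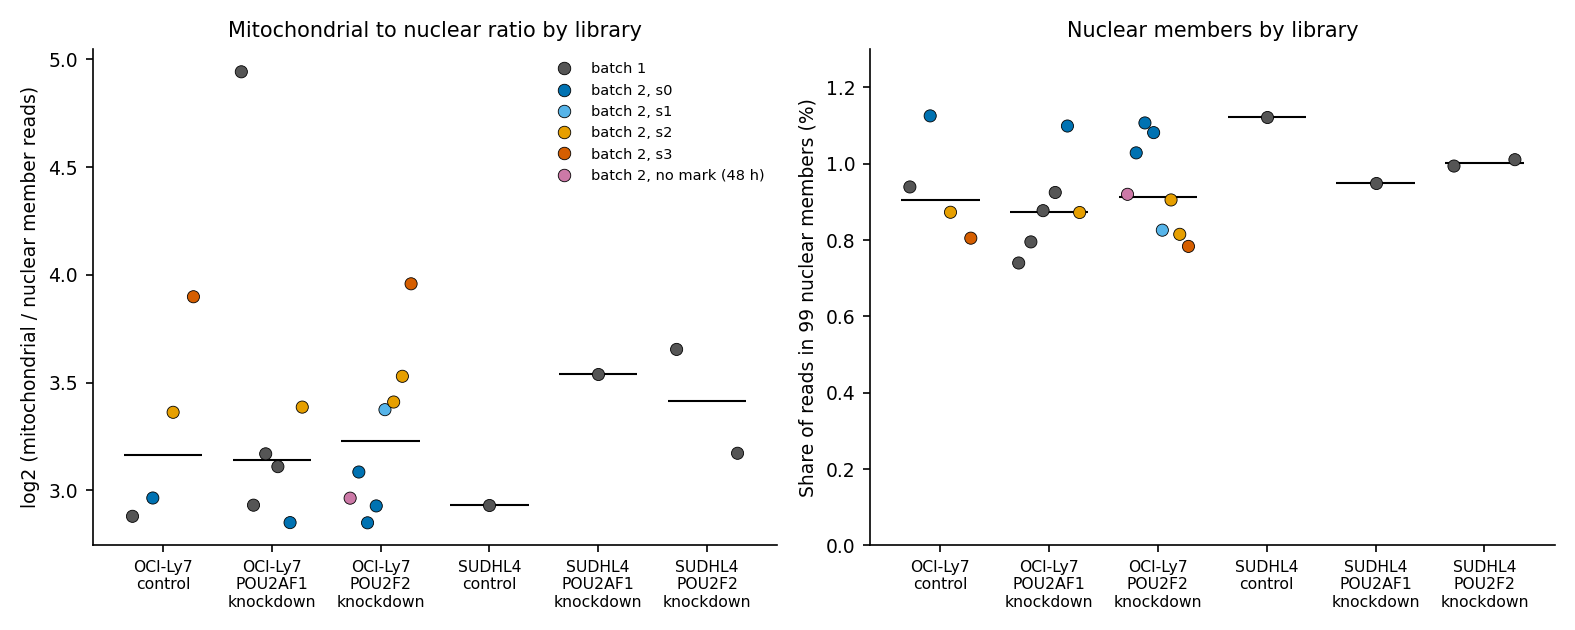
Left, log2 ratio of reads of the 13 mitochondrial mRNAs to reads of the 99 nuclear members. Right, share of all reads (%) in the nuclear members; each point is 1 library, placed by line and condition and coloured by batch and mark, with bars at group medians. One POU2AF1 knockdown library stands at 4.94 on the left, and the marks s0, s2 and s3 order the other OCI-Ly7 batch 2 libraries from low to high.

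With batch held constant, the POU2AF1 knockdown ratio exceeded the control ratio by 0.09 (log2, within-group SD 0.73, exact permutation p = 0.78, two-sided, 50 arrangements, smallest possible p 0.02). Without replicate 1 the difference was -0.11 (exact permutation p = 0.75). Within batch 1 it was 0.66 (exact permutation p = 0.4, smallest possible 0.2), or 0.19 without replicate 1 (exact permutation p = 0.5, smallest possible 0.25), and within batch 2 -0.29 (exact permutation p = 0.5, smallest possible 0.1). For POU2F2, tested within batch 2, the difference was -0.15 (SD 0.40, exact permutation p = 0.64, 165 arrangements). Leaving out control replicate 9 turned it to 0.10 (exact permutation p = 0.71). Neither difference was larger than the spread between libraries of a group.

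The marks on the batch 2 libraries set the ratio apart more than the guides did. The 5 libraries marked s0 ran from 2.85 to 3.09, the 4 marked s2 from 3.36 to 3.53 and the 2 marked s3 were at 3.90 and 3.96, each mark holding both control and knockdown libraries. Within marks, POU2F2 knockdown exceeded control by 0.05 (SD 0.11, exact permutation p = 0.46, 24 arrangements), and POU2AF1 knockdown, with batch 1, by 0.27 (exact permutation p = 0.45), or by 0.06 without replicate 1 (exact permutation p = 0.62). The labels do not say what the marks stand for, and this description was chosen after the values were seen.

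The 2 parts of the ratio moved in opposite ways across marks. Mitochondrial mRNAs took 7.93% to 8.79% of reads at s0 and 12.0% and 12.2% at s3, and nuclear members 1.03% to 1.13% and 0.783% to 0.805%. POU2AF1 knockdown replicate 1 had a mitochondrial mRNA share of 22.7% (95% Wilson interval 22.74% to 22.76%), against at most 12.5% elsewhere, and a nuclear member share of 0.740%, the lowest of all. Its mitochondrial rRNAs, 3.07% of reads against at most 1.72% elsewhere, were also the highest, while the nuclear transcript MALAT1, at 0.0166%, was the lowest of the OCI-Ly7 libraries (0.0205% to 0.0306% in controls). NEAT1, also a nuclear transcript, was not the lowest, at 185 CPM against 163 to 403 in controls and 126 to 336 in the other POU2AF1 knockdowns. The part of RNA quality or selection in this library was not tested.

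The make-up of the mitochondrial mRNA pool followed the same marks. MT-CO1, the catalytic core of complex IV, made up 15.3% to 18.9% of mitochondrial mRNA reads at s0, 24.6% to 26.1% at s2 and 24.3% to 26.5% at s3. MT-ND1, a membrane subunit of complex I and the first mRNA of the heavy-strand transcript, ran the other way, with 7.84% to 9.86% at s0, 3.60% to 4.06% at s2 and 3.55% to 3.70% at s3. MT-ND2, its neighbour downstream, made up 8.10% to 9.71% at s0 and 5.26% to 5.73% at s2. The ranges at s0 did not meet those at s2 for these 3 mRNAs. In batch 1, MT-CO1 was at 17.9% to 26.5% and MT-ND1 at 3.76% to 6.70%, and the highest of the former and the lowest of the latter belonged to POU2AF1 knockdown replicate 1. In SUDHL4, MT-CO1 was at 27.5% to 28.8% and MT-ND1 at 3.83% in the control, 5.60% in the POU2AF1 knockdown, and 4.78% and 4.45% in the POU2F2 knockdowns. MT-ND6 took 0.0528% to 0.314% of the pool, and its ratio to the 12 heavy-strand mRNAs differed from control by -0.26 (log2) in OCI-Ly7 POU2AF1 knockdown (exact permutation p = 0.24; -0.19 and p = 0.3 without replicate 1) and by -0.30 in POU2F2 knockdown (exact permutation p = 0.52).

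**Figure D2:**
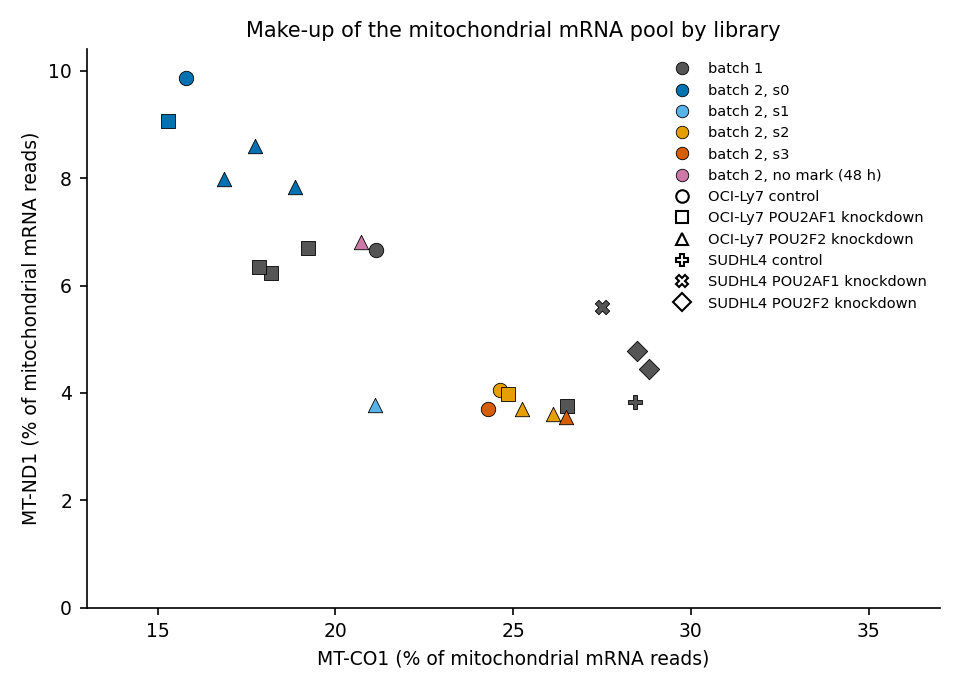
Share of MT-ND1 (vertical, % of mitochondrial mRNA reads) against share of MT-CO1 (horizontal) in the 22 libraries, with colour for batch and mark and shape for line and condition. Libraries of 1 mark lie together whatever the guide, with s0 at the upper left (MT-ND1 7.84% to 9.86%) and s2 and s3 at the lower right (3.55% to 4.06%).

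Nuclear members also moved with batch and mark in OCI-Ly7. ATP5F1D, the delta subunit of the ATP synthase stalk, was at 83.3 to 104 CPM in the 5 batch 1 libraries and 18.7 to 39.6 in the 12 marked batch 2 libraries, with POU2F2 knockdown replicate 3 at 105. NDUFS7, an iron-sulphur subunit of complex I, was at 79.5 to 107 and 22.3 to 46.4, with that replicate at 102. For both genes that replicate lay with batch 1, and the other batch 2 libraries did not overlap with batch 1. ATP5MC1 had a median of 201 CPM at s0, 85.7 at s2 and 64.7 at s3. The complex I assembly factor NDUFAF4 had medians of 46.7, 19.8 and 15.9 CPM, and ATP5MK, a small subunit of the synthase, 60.7, 33.6 and 23.9.

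In OCI-Ly7, no member passed the test after POU2AF1 knockdown in the fit with batch. None of the 92 nuclear members and none of the 13 mitochondrial mRNAs was called (edgeR quasi-likelihood test, adjusted p below 0.05 over all genes tested), where 0.887% of the 16001 genes were. At an unadjusted p below 0.05 there was 1 nuclear member and no mitochondrial one. The share of all genes at that threshold is not given here, so this count has no background. The median log2 change of the nuclear members was -0.01, 89 of 92 lay within 0.25 of 0, and the median standard error was 0.19. Complex II kept the narrowest range, from -0.06 (SDHC) to 0.03 (SDHD). Mitochondrial mRNAs had a median of 0.15 with 12 of 13 above 0, and without replicate 1 the median was -0.09. Within batch 1 it was 0.71, or 0.09 without replicate 1, and within batch 2 -0.17. No member was called in these fits, which called 0.14%, 8.23% and 0.043% of genes.

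NDUFA4L2 (chr12:57234903-57240715, minus strand) was the lowest nuclear member after POU2AF1 knockdown. It was at 5.13 CPM in the batch 1 control and at 5.15, 6.24 and 6.95 in the batch 2 controls. The knockdown replicates 1 to 6 were at 4.15, 3.36, 3.49, 3.29, 2.34 and 4. The groups did not overlap, and neither did those of COX8A and NDUFA13, both also lower, while 2.96% of all genes did not overlap in this comparison. Without replicate 1 the same 3 nuclear members did not overlap, against 3.59% of genes. The fitted change of NDUFA4L2 was -0.77 (standard error 0.20) with an adjusted p of 0.10 by edgeR. It passed the threshold with DESeq2 (-0.75, adjusted p = 0.0084) and with the marks as a block (-0.68, adjusted p = 0.016 by edgeR), a fit that called 5.59% of genes and no other member. ATP5IF1, which inhibits the ATP synthase when it runs backwards, was at 139.8 CPM in the batch 1 control, 127.9, 104.1 and 97.3 in batch 2 controls and 94.0 to 123 in the knockdown. Its fitted change was -0.23 (adjusted p = 1.0 by edgeR).

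After POU2F2 knockdown in OCI-Ly7 there were again no called members. The test called 0% of the 16001 genes (283 genes at an unadjusted p below 0.05, none of them members), and the targeted gene POU2F2 itself, at -1.57 (standard error 0.24), had an adjusted p of 0.056 by edgeR. DESeq2 also called 0 members, with the share of all genes not counted there. The nuclear median was -0.05, with 89 of 92 within 0.25 of 0 and a range from -0.32 (NDUFA4L2, 3.94 to 6.42 CPM) to 0.26 (NDUFC2-KCTD14, a readthrough gene). The mitochondrial median was -0.02, with 6 of 13 above 0 and MT-ND6 the lowest at -0.25. No member's libraries were all above or all below the 4 controls, where 0.2% of genes were. Those controls include the batch 1 library, while the 8 knockdown libraries are all labelled batch 2.

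In SUDHL4, some nuclear members of every complex and some mitochondrial mRNAs passed the test after POU2AF1 knockdown, at about the share of all genes. Of the 92 nuclear members 23 were lower and 9 higher (edgeR, adjusted p below 0.05), and of the 13 mitochondrial mRNAs 3 were higher. This test called 36.8% of all 16973 genes, 18% higher and 18.8% lower, so the nuclear members' 32 calls (45 at an unadjusted p below 0.05) are near the background share, with 23 of 32 on the lower side. The nuclear median log2 change was -0.14 against 0.01 over all genes, with 67 of 92 below 0, and the mitochondrial median was 0.54, with 12 of 13 above 0. The share of all genes at the unadjusted threshold is not given, so the count at that threshold has no background. These comparisons have 1 library a side, and the spread is that of the 2 POU2F2 knockdown libraries. With all 22 libraries fitted together, which called 1.66% of genes, no member was called, and the medians were -0.16 and 0.52.

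Complex II and the entry points of the chain were among the lower genes. SDHA, the flavoprotein that oxidises succinate (chr5:218241-256700, plus strand), was at 211 CPM in the control, 125 in the POU2AF1 knockdown and 170.2 and 171 in the POU2F2 knockdowns, a fitted change of -0.74 for POU2AF1 (standard error 0.11, edgeR adjusted p = 1.6e-06). Its iron-sulphur partner SDHB was at 97.8, 73.3, 84.2 and 80.3 CPM in the same order (-0.40 for POU2AF1). SDHD fell by 0.27 on the log2 scale, and SDHC, at -0.10, was not called. In complex I, 10 of 38 genes were lower and 2 higher, where 18.8% of all genes were called lower and 18% higher. The lower ones included NDUFV1 (-0.42) and NDUFV2 (-0.32), which take electrons from NADH, the large iron-sulphur subunit NDUFS1 (-0.39), and the acyl carrier protein NDUFAB1 (-0.50). NDUFA10 (0.26) and NDUFA13 (0.27) rose. The assembly factor NDUFAF2 was at 39.1 CPM in the control, 23.2 in the POU2AF1 knockdown and 29.7 and 30.7 in the POU2F2 knockdowns, a fitted change of -0.73 for POU2AF1 (standard error 0.12).

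In complex III, the core subunits and cytochrome c1 fell while the small subunit UQCRB rose. UQCRC1 was at 161 CPM in the control, 109.8 in the POU2AF1 knockdown and 132 and 127 in the POU2F2 knockdowns (-0.54 for POU2AF1, standard error 0.11). CYC1 was at 191, 126, 159 and 147 CPM in that order (-0.58), UQCRC2 fell by 0.28 and the Rieske protein UQCRFS1 by 0.33 on the log2 scale. UQCRB, which lies near the quinone sites, was at 164, 258, 189 and 174 CPM (0.67, standard error 0.11). UQCRHL had the highest fitted value of the complex, 1.03, on few reads and with an adjusted p of 0.30 by edgeR.

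The ATP synthase also held members that fell and members that rose, with the c subunit genes on both sides. Its catalytic subunit ATP5F1B went from 1395 CPM in the control to 915 in the POU2AF1 knockdown, beside 1180.2 and 1081 in the POU2F2 knockdowns (-0.59 for POU2AF1, standard error 0.15). Of the c subunit genes, ATP5MC1 (-0.62) and ATP5MC3 (-0.45) fell and ATP5MC2 (0.49) rose. ATP5MC1 was at 89.2, 57.3, 74.0 and 68.3 CPM and ATP5MC2 at 261, 362, 260.4 and 242 CPM in the control, the POU2AF1 knockdown and the 2 POU2F2 knockdowns. ATP5F1E, the epsilon subunit of the stalk (0.51), and ATP5MG, a membrane subunit (0.61), also rose, ATP5MG from 174 to 263 CPM. In complex V, 5 genes fell and 3 rose of 19, where 18.8% of all genes were called lower and 18% higher. In complex IV, against the same shares, no nuclear member of 13 tested fell. COX4I1 (0.34) and COX7A2L (0.50), which joins complexes III and IV into supercomplexes, rose. COX7B was the lowest of that complex at -0.28 with an adjusted p of 0.057 by edgeR.

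**Figure D3:**
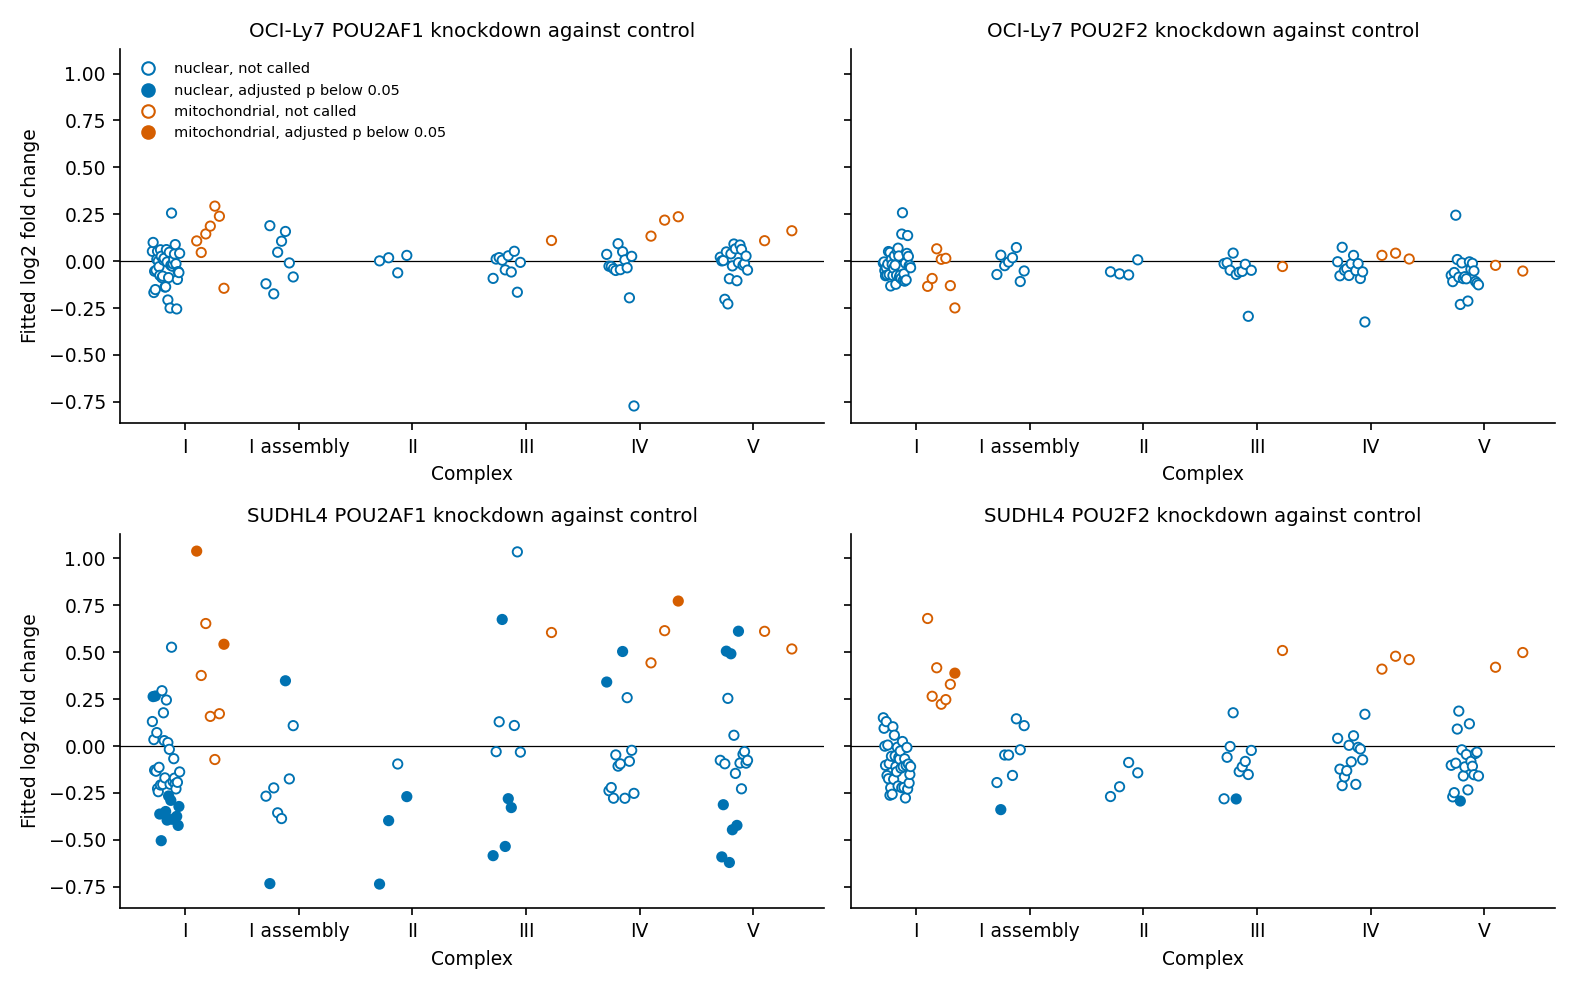
Fitted log2 change against control (vertical) of each tested member by complex (horizontal), 1 panel for each knockdown and line, blue for nuclear and orange for mitochondrial members, filled where the adjusted p is below 0.05. No member is filled in OCI-Ly7, and in SUDHL4 the POU2AF1 panel holds 23 lower and 12 higher filled points, 3 of them mitochondrial.

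The mitochondrial mRNAs called in this comparison were MT-ND1, MT-CO3 and MT-ND6. MT-ND1 was at 3437 CPM in the control, 6974 in the POU2AF1 knockdown and 6657 and 4121 in the POU2F2 knockdowns, and the fitted change for POU2AF1 was 1.04 (standard error 0.31, edgeR adjusted p = 0.027). MT-CO3 was at 8955, 15109 and 14691 and 9432 CPM (0.77, standard error 0.29). MT-ND6, from the other strand, was at 117, 169, 160.4 and 139.7 CPM (0.54, standard error 0.11). For MT-ND1 and MT-CO3 the 2 POU2F2 knockdown libraries differed from each other by more than the second of them differed from the control. The others ranged from -0.07 (MT-ND4L) to 0.65 (MT-ND3), with MT-ATP6, MT-CO2 and MT-CYB at 0.61, MT-ATP8 at 0.52, MT-CO1 at 0.44, MT-ND2 at 0.38, MT-ND5 at 0.17 and MT-ND4 at 0.16. MT-ND4 and MT-ND4L, which share an mRNA, thus lay at the low end.

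The summed ratio of mitochondrial to nuclear members was 2.93 (log2) in the SUDHL4 control, 3.54 in the POU2AF1 knockdown and 3.65 and 3.17 in the POU2F2 knockdowns. All 3 knockdown libraries were above the control, and the 2 POU2F2 libraries lay on either side of the POU2AF1 library. This ratio was not tested in SUDHL4. Mitochondrial mRNAs made up 8.56% of reads in the control (95% Wilson interval 8.55% to 8.57%), 11.0% in the POU2AF1 knockdown (11.04% to 11.06%), and 12.5% (12.51% to 12.52%) and 9.11% (9.10% to 9.12%) in the POU2F2 knockdowns. Nuclear members made up 1.12%, 0.949%, 0.994% and 1.01%. Mitochondrial rRNA was at 1.20%, 1.72%, 1.53% and 1.15%, highest in the POU2AF1 knockdown and lowest in the second POU2F2 knockdown. MALAT1 rose by 1.23 on the log2 scale after POU2AF1 knockdown and 0.62 after POU2F2 knockdown. Of 18 listed signs of RNA quality and stress, 5 rose and 4 fell after POU2AF1 knockdown, and 2 rose and 3 fell after POU2F2 knockdown. Over all genes, 18% were called higher and 18.8% lower after POU2AF1 knockdown, and 4.79% and 2.56% after POU2F2 knockdown. The summed B cell markers went from 6523 CPM in the control to 12628 in the POU2AF1 knockdown and 9015 and 8018 in the POU2F2 knockdowns, with 8 of 11 higher and 3 lower after POU2AF1 knockdown, and the summed T and NK cell markers (15 genes, 2 of them above 1 CPM) from 5.85 to 32.6, and 15.5 to 18.9 CPM. The summed myeloid markers (11 genes, at most 1 above 1 CPM) went from 1.04 to 6.94, and 2.59 to 2.70 CPM, with CD68 (3.02, edgeR adjusted p = 1.2e-07) and ITGAM (2.80) higher after POU2AF1 knockdown. Their part in the result was not tested.

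After POU2F2 knockdown in SUDHL4, 3 nuclear members were lower, none was higher, and 1 mitochondrial mRNA was higher. The test called 7.35% of genes, 4.79% higher and 2.56% lower. NDUFAF2 fell by 0.34, ATP5MC1 by 0.29 and UQCRC1 by 0.28 on the log2 scale (edgeR adjusted p = 0.039, 0.037 and 0.0498), and MT-ND6 rose by 0.39 (adjusted p = 0.0097). These 4 were also called with the same sign after POU2AF1 knockdown, but both comparisons use the same control library. The nuclear median was -0.10 with 75 of 92 below 0, and the mitochondrial median was 0.42 with all 13 above 0. SDHA (-0.27), CYC1 (-0.28) and ATP5F1B (-0.27) were not called, nor were the genes that rose after POU2AF1 knockdown, such as UQCRB (0.18), ATP5MG (0.12) and ATP5MC2 (-0.02). In the fit of all libraries, which called 0.0951% of genes, no member was called.

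**Figure D4:**
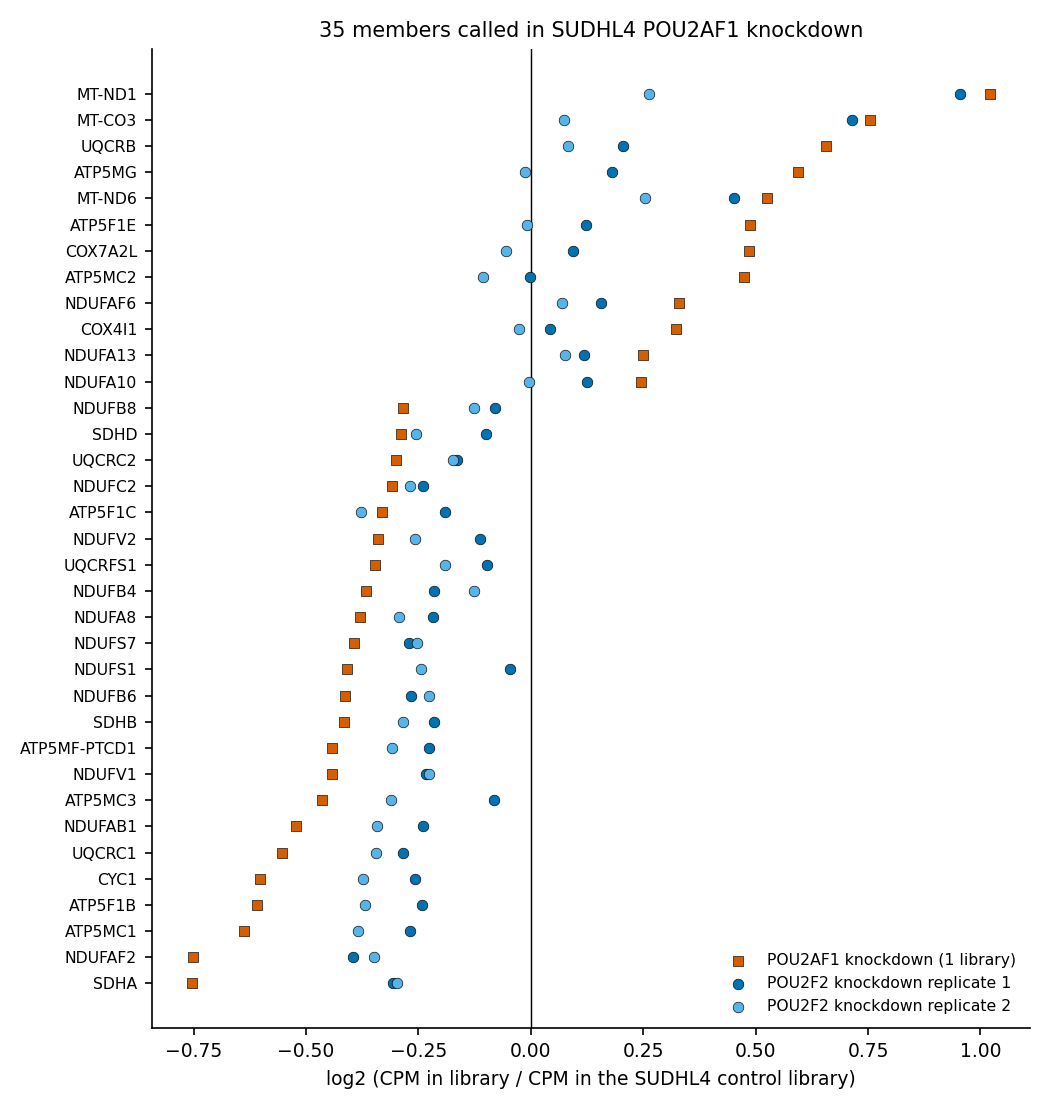
The 35 members called in SUDHL4 POU2AF1 knockdown (rows) with the log2 ratio of their CPM in each knockdown library to that in the single control library (horizontal), by condition. They were chosen on the POU2AF1 values and all share 1 control library. SDHA is lowest in the POU2AF1 library and MT-ND1 highest.

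No member's response was shown to differ between the lines. For POU2AF1, 0 of 93 nuclear and 0 of 13 mitochondrial members passed the interaction test, which called 0.798% of 18918 genes, and 1 nuclear member had an unadjusted p below 0.05. That member was SDHA, with a difference of -0.75 (SUDHL4 minus OCI-Ly7, standard error 0.26, edgeR adjusted p = 0.23). In OCI-Ly7 its control libraries were at 139, 155, 158 and 158 CPM and its POU2AF1 knockdown libraries at 119 to 172. The share of all genes at the unadjusted threshold is not given for the interaction tests. Mitochondrial differences had a median of 0.38, with a median standard error of 0.80. For POU2F2 the interaction called 0.0106% of genes and 0 members (0 at an unadjusted p below 0.05), with a mitochondrial median of 0.41.

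Between the control lines, nuclear members were called no more often than other genes. Of 93 nuclear members 11 were higher and 1 lower, and of 13 mitochondrial ones none was called, where the comparison called 23.5% of genes, 12.5% higher and 11% lower. The nuclear median was 0.31 with 76 of 93 above 0, against -0.07 over all genes, and the mitochondrial median was -0.18. The comparison rests on 1 SUDHL4 control library, and line, medium and culture cannot be told apart. Leaving out the batch 1 OCI-Ly7 control removed the calls of COX7A2L, NDUFA4L2 and NDUFAF8.

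ATP5F1A, the alpha subunit of the ATP synthase (chr18:46080248-46104334, minus strand), had the largest difference among the called members. It was at 1006 CPM in the SUDHL4 control and 875 to 957 in the other SUDHL4 libraries, against 286 to 504 in the OCI-Ly7 controls and 281 to 467 in the knockdowns, a difference of 1.66 (standard error 0.31, edgeR adjusted p = 4.8e-04). NDUFC2, a complex I membrane subunit, was at 68.6 CPM in the SUDHL4 control and 11.6 to 23.2 in the OCI-Ly7 controls (1.55). NDUFAF2 (1.41), NDUFB2 (1.35), NDUFA4L2 (1.12), NDUFA12 (1.08), NDUFV2 (0.93), ATP5MC2 (0.87), NDUFA7 (0.85), SDHA (0.66) and COX7A2L (0.60) were also higher. NDUFAF8, an assembly factor of complex I, was the lower one (-1.20), at 23.5 CPM against 31.8 to 60.0. Over all libraries, the 4 of SUDHL4 lay wholly above the 18 of OCI-Ly7 for 20 nuclear members and wholly below for ATP5PD and NDUFAF8, while 31% of genes did not overlap. No mitochondrial mRNA separated the lines.

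**Figure D5:**
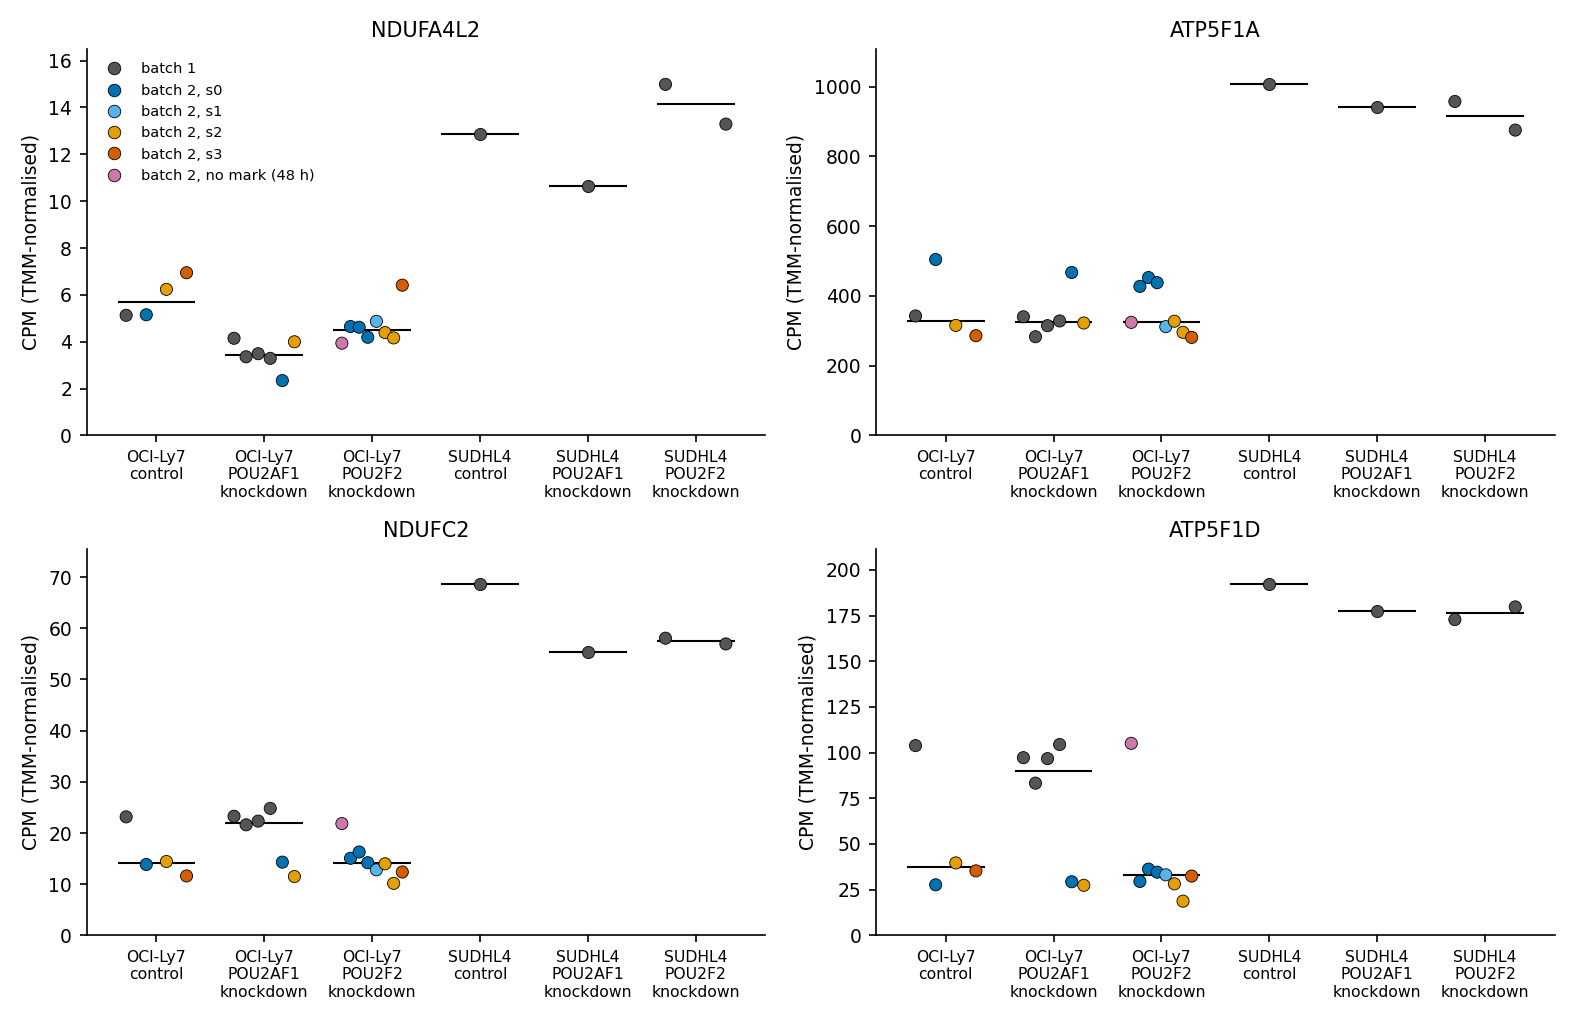
TMM-normalised CPM (vertical, from 0) of NDUFA4L2, ATP5F1A, NDUFC2 and ATP5F1D in all 22 libraries, each point a library placed by line and condition and coloured by batch and mark, with bars at group medians. ATP5F1A lies at 875 to 1006 in SUDHL4 and at 281 to 504 in OCI-Ly7, while ATP5F1D separates by batch within OCI-Ly7.

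Other genes of the pathway were counted in the same fits, from lists of genes of known function. In OCI-Ly7 a single gene of them was called, OPA1, which fuses inner membranes and rose by 0.51 after POU2AF1 knockdown. That comparison called 0.887% of all genes. In SUDHL4 after POU2AF1 knockdown, 21 of 47 genes for mitochondrial transcription, replication and RNA processing fell and 2 rose (median -0.25, against 0.01 over all genes), where 18.8% of all genes were called lower and 18% higher. In the fit of all libraries, which called 1.66% of genes, the calls among the lists here and below were PTCD2 and FOXO1 alone. In the fit of SUDHL4 alone, the listed genes that fell included PTCD2 (-1.06), which acts in processing of mitochondrial RNA, and TFB1M (-0.69), an rRNA methyltransferase. GTPBP3 (-0.88) and MRM1 (-0.69), which modify mitochondrial tRNA and rRNA, fell there as well. PTCD2 also differed between the lines in its POU2AF1 response (-1.30, edgeR adjusted p = 0.025). Among 19 tested regulators of nuclear respiratory genes, 5 rose and 4 fell, with MYC at -1.12, PPARGC1B at -0.55, FOXO1 at 0.88, TFEB at 0.84 and PPARD at 0.66. MYC differed between the lines as well (-1.65, edgeR adjusted p = 0.017).

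Of the assembly factors outside the symbol rule, 18 of 57 tested genes were lower and 4 higher after POU2AF1 knockdown in SUDHL4, to be read against the same 18.8% and 18%. SDHAF3 (-1.16) and SDHAF4 (-0.88), which mature complex II, LYRM7 (-0.95) and BCS1L (-0.64), which insert the Rieske protein into complex III, and COX18 (-0.84), which acts on MT-CO2, were the lowest. Of 21 genes of the tricarboxylic acid cycle and pyruvate entry 9 fell and none rose, with DLAT at -0.72 and IDH3A at -0.58. The mitochondrial ribosome had 34 lower and 3 higher of 78 (median -0.19), glycolysis 12 lower and 1 higher of 21 (median -0.52, ENO2 at -1.37 and LDHA at -0.75), and mitochondrial dynamics, import and turnover 14 lower and 3 higher of 29, with BNIP3 at -0.91 and PINK1 at 0.88. After POU2F2 knockdown the lower and higher counts in the same order of lists were 2 and 0, 1 and 2, 5 and 2, 0 and 0, 4 and 0, 1 and 0, and 2 and 0, where 2.56% and 4.79% of all genes were called lower and higher. MYC was at -0.47.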

How the data were processed

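RNA was sequenced as stranded, paired-end, poly(A)-selected libraries (TruSeq stranded mRNA, per the labels' protocols). Per the submitters' processing notes, the authors used fastp, Salmon 1.5.1 and GRCh38.p13. The 26 deposited files give estimated counts and TPM for 227912 transcripts, of which 205964 (98.4% to 98.9% of reads) were matched to GENCODE release 29 and summed to 58592 genes. The 21948 others were left out. The version of fastp and the release of the authors' transcript annotation were not given in the sources used here. Deposited TPM values were summed per gene and used only to compare levels between genes.

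Files of 1 group that differed by about their sampling noise (ratio below 1.5; 1.11 to 1.14, against 2.64 to 125 for 56 other pairs) were merged and counted as 1 sample. In OCI-Ly7, control file 3 matched file 1 plus file 2 to within 2 reads for 93.3% of 26588 genes and was not added again. This left 22 libraries.

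Rounded estimated counts were tested with edgeR 4.0.16 (R 4.3.3; TMM, robust quasi-likelihood fit, genes kept by filterByExpr at a count of 10), separately by line, and for OCI-Ly7 the model included batch. Benjamini-Hochberg adjustment ran over all genes tested and an adjusted p below 0.05 was called. Differences between lines came from 1 fit of all libraries. Biological coefficients of variation were 0.297 (OCI-Ly7), 0.0779 (SUDHL4) and 0.298 (all libraries). Ratios of mitochondrial to nuclear reads were compared by exact permutation within batch (Python 3.11.15, numpy 2.4.6). Wilson intervals (95%) cover counting error only. Fits were tested on simulated data with 200 changed genes. Alternatives used DESeq2 1.42.0, other scalings, filters, blocks and left-out libraries.

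The members and lists were chosen with earlier results of these data known. Named were all 13 mitochondrial mRNAs, up to 10 called nuclear members with the largest change in each comparison, the extremes of each complex, complex II with CYC1, isoform pairs, ATP5IF1 and at most 5 called genes of each other list. Others named were chosen after their values were seen. One listed B cell marker is not reported here.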

Additional observations from a re-analysis of the deposited data

Results flagged for a closer look

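In groups of 4 to 10 OCI-Ly7 libraries, 24 measures gave 72 groups, and in 23 of them 1 library lay far from the rest by Dixon's test. Chance sets apart about 1 in 20 where libraries are alike and measures unrelated. These groups mix batches and marks, and many measures share reads, so the count cannot be set against that rate. Control replicate 1 is the only batch 1 control, and POU2AF1 knockdown replicate 5 the only s0 library of its group. Among POU2F2 knockdowns, replicate 1 is the only s1 library, replicate 3 the only unmarked one and replicate 8 the only s3 library. Most of the 23 concern POU2AF1 knockdown replicate 1. Its mitochondrial mRNA share of reads was 22.7% (others of its group 6.07% to 9.12%), its mitochondrial rRNA share 3.07% (0.619% to 1.37%) and its log2 ratio of mitochondrial to nuclear member reads 4.94 (2.85 to 3.39). Of the 13 mitochondrial mRNAs 12 were set apart there. MT-CO1 was at 68697 CPM (others 10943 to 21392), MT-CO2 at 30318, MT-CO3 at 33326, MT-ATP6 at 21799, MT-ATP8 at 2908, MT-CYB at 17970, MT-ND2 at 13437, MT-ND3 at 2748, MT-ND4 at 41396, MT-ND4L at 4465, MT-ND5 at 12027 and MT-ND6 at 330.4 CPM. MT-ND1, at 9746 CPM, was also the highest of its group but was not set apart.

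In POU2F2 knockdown replicate 8, MT-ATP6 was at 9524 CPM (others 6447 to 7598), MT-ATP8 at 1356 (904 to 1035) and NDUFA4L2 at 6.42 (3.94 to 4.87). The medians of the s3 libraries, which include a control, were 9611, 1376 and 6.68 CPM for these genes. ATP5F1D was at 105 CPM in POU2F2 knockdown replicate 3 (18.7 to 36.3 in the others) and at 104 in control replicate 1 (27.7 to 39.6). ATP5MC1 was at 203 CPM in POU2AF1 knockdown replicate 5 (79.7 to 97.3). SDHA was at 199 CPM in POU2F2 knockdown replicate 1 (132 to 163) and at 139 in control replicate 1 (155 to 158).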

How the results depend on the processing

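Signs were compared for mitochondrial mRNAs, called nuclear members with the largest changes, extremes of each complex, complex II, CYC1, isoform pairs and ATP5IF1. No called result among them changed sign under any alternative. Nor did any difference in the log2 ratio of mitochondrial to nuclear reads pass 0.05 under those run. Some alternatives for the POU2AF1 ratio could not pass it, because their smallest possible exact permutation p was 0.05 or more. It was 0.1 without control replicate 1, 0.05 without POU2AF1 knockdown replicate 5 or 6 and within marks, and 0.2 within batch 1. In OCI-Ly7 the 0 nuclear calls after POU2AF1 knockdown became 1 with DESeq2, 1 with every file its own sample and 1 with the marks as a block (NDUFA4L2 each time), and 3 with that block lacking POU2AF1 knockdown replicate 1, where NDUFAF3 (-0.27) and ATP5IF1 (-0.25) joined it. The replicate block, with replicate number as a term, called 0 members in OCI-Ly7, and residuals of libraries that share a number correlated from -0.50 to 0.59, so the numbers do not pair the libraries. In SUDHL4 the 32 nuclear calls after POU2AF1 knockdown became 0 in the fit of all libraries, 18 with DESeq2, 56 with every file its own sample and 58 with the replicate block added to that. The 3 nuclear calls after POU2F2 knockdown became 0, 0, 29 and 26 under these, and 0 without the filter on low counts. The 3 mitochondrial calls after POU2AF1 knockdown became 0, 1, 5 and 6, and 1 without the filter, and the 1 after POU2F2 knockdown 0 in the fit of all libraries and 0 with DESeq2. Leaving out either POU2F2 knockdown library in SUDHL4, fitted with all libraries, gave 0 calls in each. The fit of all libraries called 0 members with none left out, so this cannot show how the calls depend on either library. In SUDHL4 the lone control and the lone POU2AF1 knockdown library could not be left out. The 35 members called in SUDHL4 after POU2AF1 knockdown shared 19 of 19 calls with DESeq2 and 35 of 61 with every file its own sample. The causes were not tested, except that repeated files counted as samples add residual degrees of freedom by construction. The share of all genes called was not counted with DESeq2, every file its own sample, the replicate blocks or no filter. Nor was it counted for the marks block lacking POU2AF1 knockdown replicate 1. Member counts from these fits therefore cannot be set against a background share. Leaving out 1 library moved the POU2AF1 ratio difference in OCI-Ly7 between -0.29 and 0.33 and the POU2F2 one between -0.37 and 0.10. A lone SUDHL4 library is assumed to vary like the others, and changes under 0.25 in OCI-Ly7 are near the standard errors. The fits within marks, the ratio within 1 batch, and those lacking POU2AF1 knockdown replicate 1 within marks or batch 1 were chosen after the data were seen.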
